A study of Homo sapiens with 15 samples.

Results

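The BCL2 family of apoptosis regulators is described here through 10 of its genes, taken by gene symbol from the 60649 genes counted in each library. They are the anti-apoptotic BCL2, BCL2L1 and MCL1, the effectors BAX and BAK1, and the BH3-only genes BCL2L11, BBC3, PMAIP1, BID and BIK. RNA was sequenced in 15 libraries of HSC-5, an established line of human cutaneous squamous cell carcinoma cells, as 5 conditions with 3 replicates each that the labels call biological. Control cells received sgNeg, an empty-vector control, and have the genotype WT in the labels. Cells with sgPRMT5-1 or sgPRMT5-2 have the genotype PRMT5 Knockout, and cells with sgWDR77-1 or sgWDR77-2 the genotype WDR77 Knockout. The treatment label Neomycin is shared by all 5 conditions, sgNeg included. PRMT5 is an arginine methyltransferase and WDR77 is its binding partner, and the series asks what the pair regulates together. The series text speaks of a knockdown where the labels say knockout, and whether cells were cloned after selection is not given in the sources used here. Between 5146711 and 6730428 reads were counted on genes per library, so 1 CPM (reads scaled to a common library size) stands for about 5 to 7 reads.

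BCL2 family proteins decide whether the outer membrane of mitochondria is opened during apoptosis. BAX and BAK1 form the pores, the anti-apoptotic proteins hold them and the BH3-only proteins back, and BH3-only proteins start the process when they are made or activated under stress. Squamous keratinocytes and the carcinomas that arise from them rely on MCL1 and on BCL-XL, the protein of BCL2L1, for survival. The counts sum all transcripts of a gene, so the long and short forms of BCL2L1 and MCL1, which differ in function, cannot be told apart, and protein was not measured in these libraries.

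Some libraries stood apart from the others of their condition. Across genes, log2 CPM of sgWDR77-1 replicate 1 correlated with replicates 2 and 3 at a Pearson r of 0.973 and 0.967, whereas replicates 2 and 3 correlated at 0.987. In the other conditions r was 0.980 to 0.991, and genes are not independent replicates in such a value. Reads outside genes made up 7.16% of the reads of sgNeg replicate 2, the highest share, against 2.84% and 3.56% in sgNeg replicates 1 and 3. Within sgWDR77-1 this share was 3.57% in replicate 1 and 6.04% and 5.70% in replicates 2 and 3. The members' values with sgWDR77-1 and in WDR77KO are given below with and without sgWDR77-1 replicate 1.

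The targeted genes were lower in the cells meant to lack them. PRMT5 was at 59.1, 49.6 and 67.8 CPM in the sgNeg libraries, at 33.0, 35.8 and 41.4 CPM with sgPRMT5-1 and at 44.2, 44.5 and 39.4 CPM with sgPRMT5-2. It fell by 0.69 (log2) with sgPRMT5-1 and by 0.45 with sgPRMT5-2 (adjusted p = 0.00525 and 0.00257, limma voom). All 6 sgPRMT5 libraries lay below the 3 sgNeg libraries, yet most of the transcript was still counted, and counts per gene do not tell an edited transcript from an unedited one. WDR77 was at 125, 114 and 119 CPM with sgNeg, at 30.8, 52.0 and 53.3 CPM with sgWDR77-1 and at 26.6, 24.9 and 22.0 CPM with sgWDR77-2. It fell by 1.40 with sgWDR77-1 and by 2.29 with sgWDR77-2 (adjusted p = 0.00141 and 1.78e-08), and the 6 sgWDR77 libraries lay below all 3 sgNeg libraries.

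The cell type label was compared with marker genes. The 6 squamous keratinocyte markers summed to 1998 to 2439 CPM with sgNeg, 1762 to 2022 with sgPRMT5-1, 1450 to 1539 with sgPRMT5-2, 1556 to 1866 with sgWDR77-1 and 2205 to 2309 with sgWDR77-2. KRT17 was the most abundant of them by the mean over all libraries, and 1 of the 6 had a mean under 1 CPM. Markers of other cell types summed to far less than these in all libraries, with COL1A2 (fibroblasts), TYR and DCT (melanocytes) and CD3E (T cells) at 0 reads throughout. Taken singly, the endothelial marker CDH5 with sgWDR77-1 (29.1 to 33.6 CPM) was near the keratinocyte marker DSG3 there (25.9 to 29.7 CPM). The 6 fibroblast markers summed to 6.68 to 16.2 CPM (mostly COL1A1), the 4 melanocyte markers to 2.55 to 7.48 (mostly PMEL, save in sgPRMT5-2 replicate 2, where PMEL made up 0.680 of 2.55 CPM), the 3 endothelial markers to 12.7 to 36.1 (mostly CDH5) and the 4 immune markers to 0.360 to 1.83 (mostly CD14). Of these, PMEL fell by 1.13 (log2) and VWF by 1.92 in PRMT5KO (adjusted p = 0.0391 and 0.0181, limma voom), both from few reads, and both calls were lost without sgNeg replicate 1 (adjusted p = 0.143 and 0.084) or 2 (0.134 and 0.0522). The PMEL call was lost in 9 of 17 settings, among them the fits without sgPRMT5-1 replicate 3 (0.0504) or sgPRMT5-2 replicate 1, 2 or 3 (0.0653, 0.056 and 0.0537). With sgPRMT5-2 PMEL, VWF and COL1A1 fell, PMEL not when replicate 2 was left out (0.0892), and COL1A1 by 0.66 (adjusted p = 0.0142), a call lost without sgPRMT5-2 replicate 1 or 2 (0.132 and 0.0861). With sgWDR77-1 CDH5 was at 29.1 to 33.6 CPM against 14.1 to 22.1 CPM with sgNeg and rose by 0.83 (adjusted p = 0.0271), a call lost without sgNeg replicate 1, 2 or 3 (0.103, 0.133 and 0.0749) or sgWDR77-1 replicate 2 (0.0562). These calls with single sgRNAs were picked after their values had been seen. The keratin gene KRT5 was at 512, 638 and 817 CPM with sgNeg and at 33.8 to 335 CPM in the other 12 libraries, and it fell by 2.41 (log2) in PRMT5KO and by 3.42 in WDR77KO (adjusted p = 0.0065 and 1.59e-06). DSG3, a desmosomal cadherin, fell by 0.70 and 0.82 in the same comparisons (adjusted p = 0.00604 and 0.00146). Not all keratinocyte markers went this way. KRT17 was at 1420, 1421 and 1453 CPM with sgWDR77-2 against 760 to 890 CPM with sgNeg and rose there by 0.82 (adjusted p = 1.23e-05), a value picked after it had been seen. Over the 5 keratinocyte markers tested, the median log2 fold change was -0.035 in PRMT5KO and 0.14 in WDR77KO. KRT5 and DSG3 were lower in the same libraries in which BCL2 family genes differ below, and the part of these markers in those results was not tested.

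All 10 members passed the filter on low counts in each comparison. A gene was called at an adjusted p under 0.05 in limma voom, with Benjamini-Hochberg adjustment over all genes tested, and "rose" and "fell" are used for called genes alone. With sgPRMT5-2 5 of the 10 members were called against sgNeg, where 40.1% of all genes tested were called. Of these, 4 rose (BCL2L1, BAX, PMAIP1 and BCL2) and 1 fell (BCL2L11), against 20.9% of all genes higher and 19.3% lower. In PRMT5KO, which pools both sgPRMT5 conditions, 3 of 10 were called against sgNeg, where 17.0% of all genes were. This fit had no term for the sgRNA and took the 6 libraries as replicates of a single condition. Between the sgPRMT5 conditions themselves 19.2% of all genes were called, so the pooled p-values do not account for differences between sgRNAs. BAX and PMAIP1 rose and BCL2L11 fell, and over all genes 8.73% were higher and 8.30% lower. The share of members called in these 2 comparisons therefore lay near the share of all genes for sgPRMT5-2 and somewhat above it for PRMT5KO, and 3 genes of 10 is a small count.

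No member was called by limma voom in the other comparisons with sgNeg. With sgPRMT5-1 0 of 10 were called and 4 had an unadjusted p under 0.05, while 3.76% of all genes were called. Over all genes 2721 of 14102 had an unadjusted p under 0.05 in this comparison. With sgWDR77-1 0 were called and 5 had an unadjusted p under 0.05 (2.71% of all genes called). With sgWDR77-2 these numbers were 0 and 5 (4.97%). At an unadjusted p under 0.05 were 2515 of 14202 genes with sgWDR77-1 and 2923 of 14038 with sgWDR77-2. In WDR77KO, which pools both sgWDR77 conditions, 0 members were called and 5 had an unadjusted p under 0.05 (3.39% of all genes called). There 2274 of 14073 genes had an unadjusted p under 0.05. The median log2 fold change of the 10 members was 0.059 with sgPRMT5-2, 0.053 with sgPRMT5-1, -0.090 with sgWDR77-1 and 0.11 with sgWDR77-2, beside all-gene medians of 0.0014, 0.0036, 0.024 and 0.0077. It was 0.028 in PRMT5KO and -0.00096 in WDR77KO, beside -0.0058 and 0.0029 for all genes. The WDR77KO median was 0.047 without sgWDR77-1 replicate 1 (all genes 0.023), so its direction turned. Medians also turned for sgPRMT5-1 (-0.037 without sgNeg replicate 3), for sgPRMT5-2 (-0.023, library totals) and for PRMT5KO (-0.035, library totals). The all-gene medians in these fits were -0.021, -0.082 and -0.069. With library totals all genes thus shifted down too, and the member medians stayed above them. The members thus did not move one way as a group. These comparisons share the 3 sgNeg libraries, so they are not independent of each other.

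A count that needs no test was also made. PMAIP1 was higher in all 12 sgPRMT5 and sgWDR77 libraries than in any sgNeg library, as 2.14% of 14061 genes were, and BCL2L11 was lower in all 12, as 2.62% were. The remaining 8 members had at least 1 library of the 12 inside or beyond the sgNeg range on the other side. BAX and BCL2 had 11 of the 12 libraries above the highest sgNeg library, so with PMAIP1 3 of 10 members had at least 11 above, as 4.75% of the same genes did, and BCL2L11 alone had at least 11 below, as 5.23% did. Because the counts are from bulk RNA, fewer cells of a type and less RNA per cell cannot be told apart in any of these values.

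**Figure D1:**
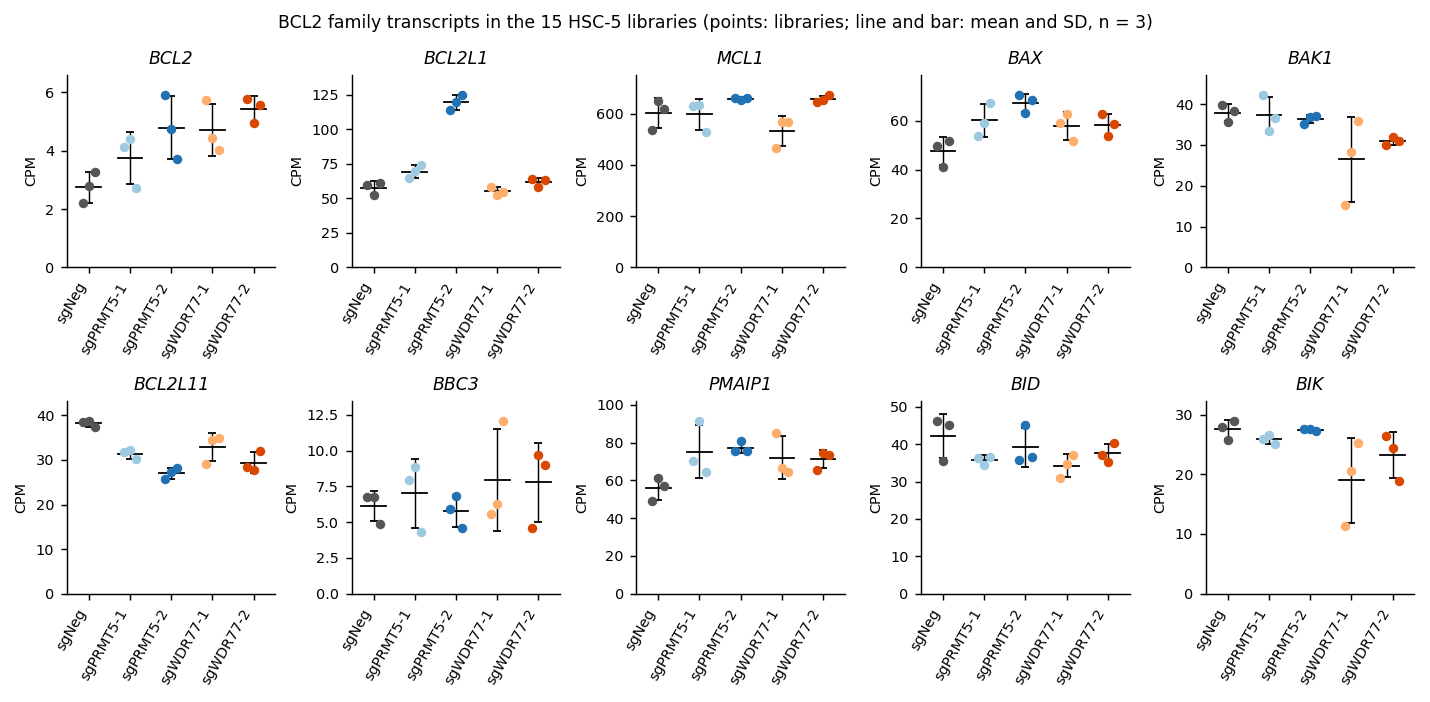
CPM of the 10 BCL2 family genes in each library, with points for libraries and a line and bar for the mean and SD of 3 replicates in each condition. BCL2L1 stands at 114 to 125 CPM with sgPRMT5-2 and at 52.1 to 74.0 CPM elsewhere, and BCL2L11 is lower in all 12 sgPRMT5 and sgWDR77 libraries than in the 3 sgNeg libraries.

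Levels of different genes were compared per kilobase of merged exons, as the mean and SD of the 3 sgNeg libraries. MCL1 was the most abundant member by far, at 96.7 ± 9.43 CPM per kb. BIK (28.9 ± 1.64) and PMAIP1 (25.5 ± 2.83) followed with ranges that overlap, then BAX (18.3 ± 2.23) and BAK1 (17.1 ± 0.943), which also overlap. BCL2L1 stood at 13.8 ± 1.18, BID at 9.54 ± 1.31 and BCL2L11 at 5.67 ± 0.107 CPM per kb. The place of BCL2L1 is open, because 41.3% of its exon bases are shared with a gene on the opposite strand, and whether reads there were counted is not known. Over its unshared bases alone it would stand at 23.4 ± 2.00 CPM per kb, above BAX and BAK1. BBC3 (1.93 ± 0.337) and BCL2 (0.218 ± 0.0423) were the least abundant. By either length HSC-5 control cells carried much more MCL1 than BCL2L1 transcript per kb, and very little BCL2.

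The promoters of the 4 members called in a pooled comparison are shown because these genes carry the results that follow. Windows of 300 bases, from 250 before to 50 after an annotated start, were taken from RefSeq (GRCh38.p14), in which 8 of the 10 members were matched, and MCL1 and BIK are named only. Capitals mark matches to an E-box (CACGTG), the core of a cyclic AMP response element (TGACG, or CGTCA on the other strand), a forkhead motif (TGTTTAC or GTAAACA) and a CCAAT box (CCAAT or ATTGG). Both strands were searched for all of them, and the motifs were chosen after the values had been seen. For BCL2L1 the first of 2 windows is given (chr20:31723914-31724213, minus strand), for BAX chr19:48954625-48954924 (plus strand), for PMAIP1 chr18:59899746-59900045 (plus strand) and for BCL2L11 chr2:111120664-111120963 (plus strand).
BCL2L1 promoter: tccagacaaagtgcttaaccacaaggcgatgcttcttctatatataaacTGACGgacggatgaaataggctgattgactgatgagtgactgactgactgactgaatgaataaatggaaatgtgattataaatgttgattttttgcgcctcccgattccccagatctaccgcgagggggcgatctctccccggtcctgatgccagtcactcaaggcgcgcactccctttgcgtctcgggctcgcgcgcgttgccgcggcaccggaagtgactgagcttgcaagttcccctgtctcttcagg
BAX promoter: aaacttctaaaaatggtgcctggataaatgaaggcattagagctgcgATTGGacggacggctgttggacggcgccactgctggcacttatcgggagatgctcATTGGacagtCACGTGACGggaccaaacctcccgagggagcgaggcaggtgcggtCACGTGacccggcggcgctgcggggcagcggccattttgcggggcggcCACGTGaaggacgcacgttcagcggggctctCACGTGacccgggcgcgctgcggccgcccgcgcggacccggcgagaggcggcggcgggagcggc
PMAIP1 promoter: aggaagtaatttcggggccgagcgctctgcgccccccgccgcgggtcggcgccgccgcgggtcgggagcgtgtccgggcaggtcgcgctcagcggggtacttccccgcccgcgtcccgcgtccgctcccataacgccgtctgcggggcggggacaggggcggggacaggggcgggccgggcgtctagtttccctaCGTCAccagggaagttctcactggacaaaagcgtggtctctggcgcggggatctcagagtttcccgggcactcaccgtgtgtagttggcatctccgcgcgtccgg
BCL2L11 promoter: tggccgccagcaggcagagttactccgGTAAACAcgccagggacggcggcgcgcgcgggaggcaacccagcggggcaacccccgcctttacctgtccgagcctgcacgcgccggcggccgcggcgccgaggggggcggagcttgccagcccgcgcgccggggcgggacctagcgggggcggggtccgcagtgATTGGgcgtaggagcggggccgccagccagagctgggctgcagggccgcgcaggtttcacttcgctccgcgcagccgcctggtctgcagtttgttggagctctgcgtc
The BAX window holds 4 E-boxes, 1 of which overlaps the only TGACG as CACGTGACG, and 2 CCAAT boxes on the reverse strand. The BCL2L1 and PMAIP1 windows hold 1 cyclic AMP response core each, and the BCL2L11 window holds 1 forkhead motif and 1 CCAAT box. The second BCL2L1 window, which is not shown, holds none of these motifs. Among the 35116 promoter windows of the table, 7.26% hold an E-box, 24.6% the cyclic AMP response core, 3.42% the forkhead motif and 34.6% a CCAAT box. Of the other members, BCL2 has 1 cyclic AMP response core, BBC3 1 E-box and 1 CCAAT box, and BAK1 2 CCAAT boxes. The BID gene has 5 windows, of which 2 hold 1 E-box each. A match describes the letters in the window and is neither a bound site nor a cause of the changes below.

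BCL2L1 (ENSG00000171552.14, chr20:31664452-31723989, minus strand, GRCh38) encodes BCL-XL, which keeps BAX and BAK1 inactive. It was at 59.8, 52.1 and 61.3 CPM in the sgNeg libraries, at 64.6, 69.6 and 74.0 CPM with sgPRMT5-1 and at 114, 120 and 125 CPM with sgPRMT5-2. With sgWDR77-1 it was at 58.2, 52.6 and 54.6 CPM, and with sgWDR77-2 at 64.1, 57.9 and 63.0 CPM. The 3 sgPRMT5-2 libraries were far above all others, the 3 sgPRMT5-1 libraries lay just above the sgNeg range, and the sgWDR77 libraries overlapped it. The group means were 57.7 ± 4.93 CPM for sgNeg and 119 ± 5.30 CPM for sgPRMT5-2 (SD, n = 3), so the sgPRMT5-2 mean was 207% of the control mean. By limma voom BCL2L1 rose with sgPRMT5-2 by 1.05 (log2, standard error 0.086, 95% confidence interval 0.87 to 1.22, adjusted p = 1.39e-08). With sgPRMT5-1 the log2 fold change was 0.25 and was not called (adjusted p = 0.212).

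The difference between the sgPRMT5 conditions was itself tested. BCL2L1 was higher by 0.79 with sgPRMT5-2 than with sgPRMT5-1 (adjusted p = 1.01e-06), the only member called of 10 in a comparison where 19.2% of all genes were called. BAX was called there as well when sgPRMT5-1 replicate 3 was left out (0.26, adjusted p = 0.0124), and MCL1 under 2 settings given below. Of the 5 keratinocyte markers tested there, 4 were called lower and 0 higher, with a median log2 fold change of -0.26. KRT5 was at 52.2 to 61.3 CPM with sgPRMT5-2 and at 227 to 335 CPM with sgPRMT5-1. The part of these markers in the BCL2L1 difference was not tested. PRMT5 itself had a log2 fold change of 0.23 between sgPRMT5-2 and sgPRMT5-1 and was not called (adjusted p = 0.146). Its libraries in these conditions overlapped, and the part of PRMT5 loss in the BCL2L1 difference was not tested. Pooled as PRMT5KO, BCL2L1 had a log2 fold change of 0.65 against sgNeg and just missed the threshold (adjusted p = 0.0507). It was called when sgPRMT5-1 replicate 1 or 2 was left out (adjusted p = 0.0106 and 0.027) and under 3 other settings named in the closing section. Against WDR77KO, a comparison without sgNeg, BCL2L1 was higher in PRMT5KO by 0.64 (adjusted p = 0.0136), again the only member called of 10 where 14.0% of all genes were called, and it was called under each of the 20 alternative settings tried there, though not when a log2 fold change of at least 1 was also required. The sgWDR77-1 and sgWDR77-2 values against sgNeg were -0.03 and 0.09, neither called (adjusted p = 0.915 and 0.671), and the WDR77KO value was 0.02 (adjusted p = 0.963).

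Of the exon bases of BCL2L1, 41.3% are shared with ABALON, a gene on the opposite strand, and ABALON itself had 0 to 2 reads per library. The genes around BCL2L1 on the chromosome were examined, since 22 genes with a mean of at least 30 reads lie within 2.5 Mb of it. With sgPRMT5-2 12 of these 22 were called higher and 5 lower, against 20.9% of all genes higher and 19.3% lower, and their median log2 fold change was 0.22, against 0.0014 for all genes. The values for all genes include genes down to a mean normalized count of 3. They are thus not matched to the neighbours in read count, and shares at a mean of at least 30 reads were not computed. No neighbour was higher by as much as the 1.05 of BCL2L1. TPX2, a spindle assembly factor next to BCL2L1, rose by 0.36 (adjusted p = 0.000177), and the changes larger in size than that of BCL2L1 were falls, by 1.73 for ID1 (adjusted p = 3.64e-11), 1.20 for PXMP4 (0.000264) and 1.17 for NOL4L (0.00017). These neighbours were picked after their values had been seen. With sgPRMT5-1 1 neighbour was called higher and 0 lower by limma voom, with a median of 0.033. BCL2L1 thus lay among genes of which more were higher than lower with sgPRMT5-2, and the part of its chromosome region in its own rise was not tested.

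**Figure D2:**
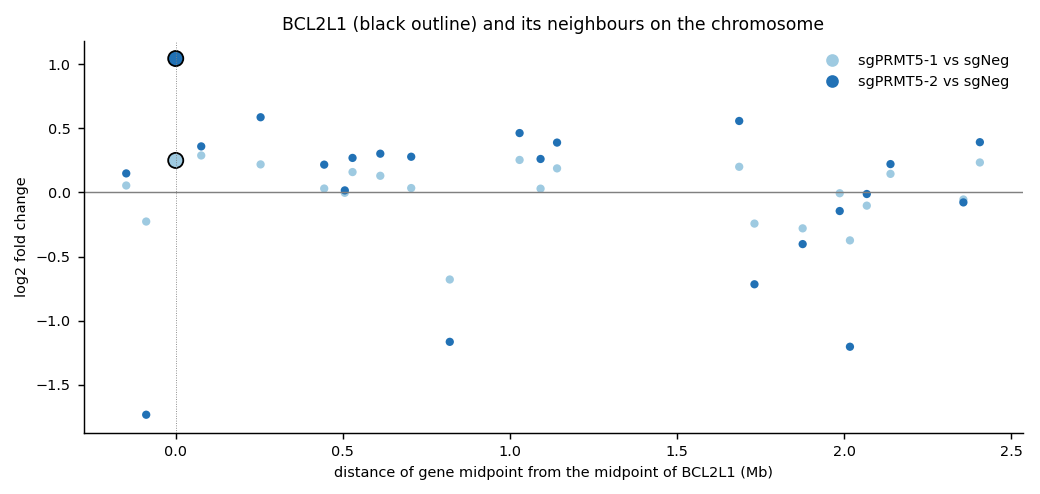
Log2 fold change against sgNeg of BCL2L1 (black outline) and its 22 neighbours, plotted by distance in Mb, for sgPRMT5-1 (light) and sgPRMT5-2 (dark). With sgPRMT5-2 no neighbour is as high as the 1.05 of BCL2L1, the median neighbour is at 0.22, and 12 neighbours are called higher and 5 lower.

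MCL1 (ENSG00000143384.14, chr1:150560895-150579738, minus strand) encodes a short-lived anti-apoptotic protein that holds BAK1 and is itself bound by the product of PMAIP1. It was at 536, 650 and 618 CPM with sgNeg, at 628, 635 and 528 CPM with sgPRMT5-1 and at 661, 653 and 660 CPM with sgPRMT5-2. The sgWDR77-1 libraries had 466, 567 and 566 CPM, and the sgWDR77-2 libraries 647, 651 and 671 CPM. All conditions overlapped sgNeg except sgPRMT5-2, whose libraries lay just above its highest library. MCL1 was not called in any comparison with sgNeg, and its log2 fold change was 0.05 in PRMT5KO and -0.02 in WDR77KO (adjusted p = 0.706 and 0.963). The PRMT5KO value turned to -0.014 when libraries were scaled by their totals alone, and the WDR77KO value to 0.0069 under upper quartile scaling. With sgNeg replicate 2 left out, the sgPRMT5-2 value was 0.18 and was called (adjusted p = 0.0124), as it was with no filter on low counts (0.13, adjusted p = 0.0337). In the comparison of both sgPRMT5 conditions MCL1 was called without sgPRMT5-1 replicate 2 (0.20, adjusted p = 0.048) and with no filter (0.15, adjusted p = 0.00777).

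BCL2 (ENSG00000171791.14, chr18:63123346-63320128, minus strand), the founding anti-apoptotic gene of the family, was near the limit of these libraries with 13 to 38 reads each. It was at 2.20, 2.79 and 3.26 CPM with sgNeg, at 4.13, 4.41 and 2.74 CPM with sgPRMT5-1 and at 5.91, 4.76 and 3.72 CPM with sgPRMT5-2. The sgWDR77-1 libraries had 5.73, 4.44 and 4.01 CPM, and the sgWDR77-2 libraries 5.78, 4.95 and 5.58 CPM. Only sgPRMT5-1 replicate 3 overlapped the sgNeg range, and the other 11 libraries were above it. BCL2 rose with sgPRMT5-2 by 0.78 (95% confidence interval 0.15 to 1.42, adjusted p = 0.0461), and this call was lost in 8 of 14 alternative settings. Among these were the fits without sgNeg replicate 1, 2 or 3 (adjusted p = 0.141, 0.0728 and 0.0566) and without sgPRMT5-2 replicate 1 or 2 (0.158 and 0.0842). The values with sgWDR77-1 and sgWDR77-2 were 0.80 and 0.97, neither called (adjusted p = 0.211 and 0.0718). Their 95% confidence intervals were wide, at 0.11 to 1.49 and 0.35 to 1.59, and the part of depth in this was not tested.

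**Figure D3:**
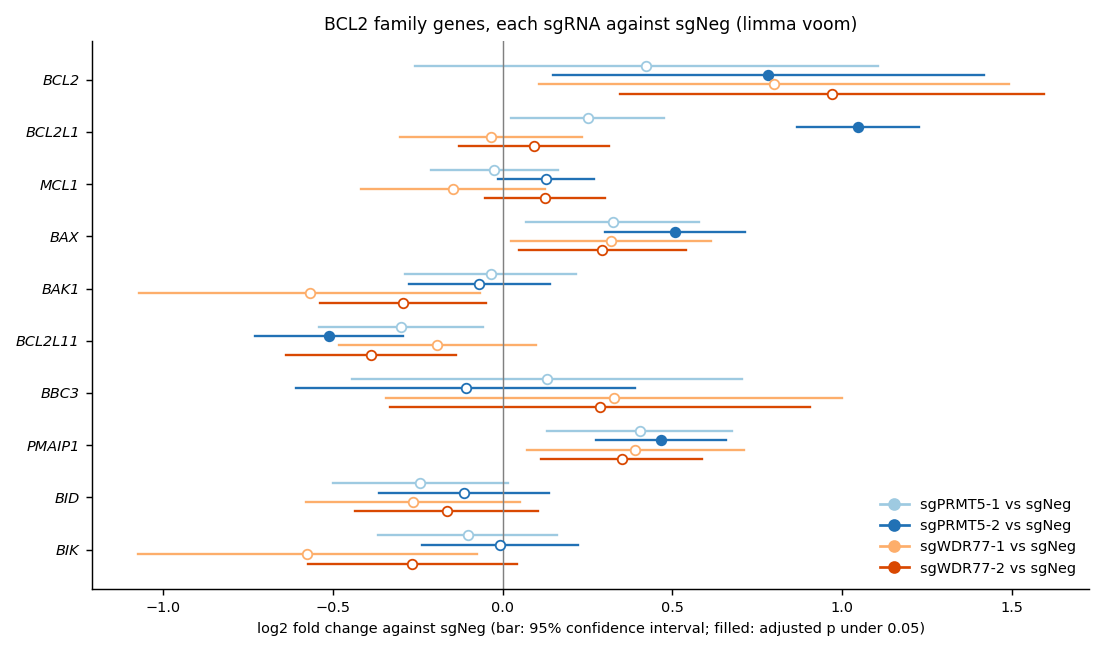
Log2 fold change against sgNeg of each BCL2 family gene for the 4 sgRNAs, with 95% confidence intervals, and filled points where limma voom gave an adjusted p under 0.05. Filled points are the 5 members called with sgPRMT5-2, of which BCL2L1 at 1.05 is the farthest from 0.

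BAX (ENSG00000087088.20, chr19:48954815-48961798, plus strand) encodes a pore-forming effector. It was at 49.6, 40.9 and 51.9 CPM with sgNeg, at 53.9, 59.2 and 67.1 CPM with sgPRMT5-1 and at 70.4, 63.2 and 68.4 CPM with sgPRMT5-2. With sgWDR77-1 it was at 59.1, 62.9 and 51.6 CPM, and with sgWDR77-2 at 62.6, 53.5 and 58.7 CPM. The sgNeg libraries were the lowest except for sgWDR77-1 replicate 3, which lay just under the highest of them. BAX rose by 0.51 with sgPRMT5-2 (adjusted p = 0.000376) and by 0.41 in PRMT5KO (standard error 0.11, adjusted p = 0.0232). The PRMT5KO call was lost without sgNeg replicate 1 (0.44, adjusted p = 0.076) and without sgNeg replicate 2 (0.31, adjusted p = 0.127). The values were 0.32 with sgPRMT5-1, 0.32 with sgWDR77-1 and 0.29 with sgWDR77-2, none of them called (adjusted p = 0.15, 0.239 and 0.158), and 0.30 in WDR77KO (adjusted p = 0.196). With the replicate number as a block the sgPRMT5-1 value was called (adjusted p = 0.0382).

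BAK1 (ENSG00000030110.13, chr6:33572547-33580293, minus strand), the other effector, was at 39.8, 35.7 and 38.3 CPM with sgNeg, at 42.2, 33.4 and 36.6 CPM with sgPRMT5-1 and at 35.1, 36.7 and 37.1 CPM with sgPRMT5-2. With sgWDR77-1 it was at 15.3, 28.1 and 35.9 CPM, and with sgWDR77-2 at 30.04, 32.0 and 31.0 CPM. The sgPRMT5 libraries overlapped the sgNeg range, whereas 5 of the 6 sgWDR77 libraries lay below it, and the lowest was sgWDR77-1 replicate 1, the library that stood apart. BAK1 was not called with sgWDR77-1 (-0.57, adjusted p = 0.221), with sgWDR77-2 (-0.29, adjusted p = 0.156) or in WDR77KO (-0.44, adjusted p = 0.27). Without sgWDR77-1 replicate 1 these values were -0.24 (adjusted p = 0.341) for sgWDR77-1 and -0.26 (adjusted p = 0.199) for WDR77KO. BAX and BAK1 share the task of opening the membrane, and only BAX was called in PRMT5KO, but the difference between these genes was not tested.

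BCL2L11 (ENSG00000153094.24, chr2:111119378-111168444, plus strand) encodes BIM, a BH3-only protein that binds all the anti-apoptotic members. It was at 38.6, 38.6 and 37.4 CPM with sgNeg, at 31.8, 32.3 and 30.1 CPM with sgPRMT5-1 and at 25.7, 27.2 and 28.1 CPM with sgPRMT5-2. With sgWDR77-1 it was at 29.2, 34.4 and 34.9 CPM, and with sgWDR77-2 at 28.3, 27.7 and 32.0 CPM. The sgNeg libraries were close together and above all 12 others. The sgPRMT5-2 libraries had the lowest mean, and their range overlapped that of sgWDR77-2. BCL2L11 fell by 0.51 with sgPRMT5-2 (adjusted p = 0.000575) and by 0.41 in PRMT5KO (standard error 0.0997, adjusted p = 0.0168). The PRMT5KO call was lost without sgNeg replicate 1 (adjusted p = 0.0688) and without sgNeg replicate 2 (adjusted p = 0.0677), while the log2 fold change was then -0.41 and -0.40. The values with sgPRMT5-1, sgWDR77-1 and sgWDR77-2 were -0.30, -0.19 and -0.39, none called (adjusted p = 0.164, 0.487 and 0.0733), and the WDR77KO value was -0.30 (adjusted p = 0.206). Of its exon bases, 10.8% are shared with MIR4435-2HG on the opposite strand, which had 99 to 207 reads per library.

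PMAIP1 (ENSG00000141682.12, chr18:59899996-59904305, plus strand) encodes NOXA, a BH3-only protein that binds MCL1 and hastens its breakdown. It was at 49.1, 61.3 and 57.0 CPM with sgNeg, at 70.1, 91.2 and 64.2 CPM with sgPRMT5-1 and at 75.4, 80.7 and 75.6 CPM with sgPRMT5-2. PMAIP1 was at 85.0, 66.6 and 64.2 CPM with sgWDR77-1 and at 65.7, 74.7 and 73.3 CPM with sgWDR77-2. All 12 libraries were above the 3 sgNeg libraries. PMAIP1 rose by 0.47 with sgPRMT5-2 (adjusted p = 0.000435) and by 0.43 in PRMT5KO (standard error 0.11, adjusted p = 0.0229). The PRMT5KO call was lost without sgNeg replicate 1 (0.33, adjusted p = 0.134), sgNeg replicate 3 (0.43, adjusted p = 0.0681) or sgPRMT5-2 replicate 2 (0.40, adjusted p = 0.0517). The value was 0.40 with sgPRMT5-1 (adjusted p = 0.0922) and was called without sgPRMT5-1 replicate 3 (0.49, adjusted p = 0.0463) and under 2 other settings. It was 0.35 with sgWDR77-2 (adjusted p = 0.0846) and was called without sgWDR77-2 replicate 1 (0.42, adjusted p = 0.0402), while the sgWDR77-1 and WDR77KO values were 0.39 and 0.36 (adjusted p = 0.183 and 0.117).

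The number of calls in PRMT5KO depended on which libraries were included. Without sgNeg replicate 1, 0 of the 10 members and 483 genes were called in PRMT5KO, against 3 members and 2397 genes with all libraries. In that fit the log2 fold changes were 0.44 for BAX, -0.41 for BCL2L11 and 0.33 for PMAIP1. Without sgPRMT5-1 replicate 1, 4 members and 3562 genes were called. The split of called genes also moved with the scaling, from 1229 higher and 1168 lower to 781 higher and 1517 lower when libraries were scaled by their totals alone. For sgPRMT5-2 it moved from 2960 higher and 2733 lower to 2292 and 3517, for sgPRMT5-1 from 214 and 316 to 146 and 380, and for PRMT5KO against WDR77KO from 1120 and 842 to 716 and 1185. BAX and PMAIP1 remained higher and BCL2L11 lower in PRMT5KO and with sgPRMT5-2 under each scaling.

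The remaining BH3-only genes were not called against sgNeg in any condition. BBC3 (ENSG00000105327.18, chr19:47220822-47232766, minus strand), which encodes the p53 target PUMA, had 24 to 66 reads per library, at 4.90 to 6.77 CPM with sgNeg and 4.28 to 12.04 CPM in the other libraries. Its direction in PRMT5KO (0.0075, adjusted p = 0.986) turned to -0.00085 under RLE scaling and -0.057 with library totals. BID (ENSG00000015475.19, chr22:17734138-17774770, minus strand), which links death receptors to mitochondria after cleavage by caspase 8, was at 46.1, 35.5 and 45.0 CPM with sgNeg and at 30.8 to 45.0 CPM elsewhere, with values of -0.18 in PRMT5KO and -0.22 in WDR77KO (adjusted p = 0.282 and 0.396). BIK (ENSG00000100290.3, chr22:43110750-43129712, plus strand), which acts at the endoplasmic reticulum, was at 27.9, 25.8 and 28.8 CPM with sgNeg and at 25.0 to 27.5 CPM in the 6 sgPRMT5 libraries. With sgWDR77-1 BIK was at 11.3, 20.5 and 25.2 CPM, lowest in replicate 1, and with sgWDR77-2 at 26.4, 24.4 and 18.9 CPM. Its values were -0.57 with sgWDR77-1 (adjusted p = 0.213) and -0.43 in WDR77KO (adjusted p = 0.311), and without sgWDR77-1 replicate 1 they were -0.26 (adjusted p = 0.341) and -0.25 (adjusted p = 0.324).

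With sgWDR77-1 replicate 1 left out, other members moved too, and again 0 were called by limma voom with sgWDR77-1 or in WDR77KO. With sgWDR77-1 PMAIP1, highest in that library, went from 0.39 to 0.25 (adjusted p = 0.234), BCL2L11 from -0.19 to -0.13 (0.598), BCL2 from 0.80 to 0.64 (0.31), BAX from 0.32 to 0.29 (0.205) and BID from -0.26 to -0.21 (0.412). In the same fit BBC3 went from 0.33 to 0.52 (0.324), MCL1 from -0.15 to -0.069 (0.732) and BCL2L1 from -0.03 to -0.090 (0.707). In WDR77KO PMAIP1 went from 0.36 to 0.32 (0.0826), BCL2L11 from -0.30 to -0.27 (0.189), MCL1 from -0.02 to 0.061 (0.778), BBC3 from 0.30 to 0.40 (0.512), BID from -0.22 to -0.17 (0.45), BCL2L1 from 0.02 to 0.03 (0.905) and BCL2 from 0.88 to 0.85 (0.0859), while BAX stayed at 0.30 (0.124).

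The conditions that target the same gene were also compared for WDR77. Between sgWDR77-2 and sgWDR77-1, limma voom called 0 of 10 members, 1 had an unadjusted p under 0.05, and 0.121% of all genes were called. Over all genes 1758 of 14011 had an unadjusted p under 0.05. Between PRMT5KO and WDR77KO BAK1 and BIK had values of 0.40 and 0.39 and were not called (adjusted p = 0.0801 and 0.0981). Both were called when all 15 libraries were fitted together (adjusted p = 0.0247 and 0.0334). Without sgWDR77-1 replicate 1 their values were 0.23 and 0.21 (adjusted p = 0.0966 and 0.153). The median over the members was 0.14 between the sgWDR77 conditions, 0.11 between the sgPRMT5 conditions and 0.086 between PRMT5KO and WDR77KO, beside all-gene medians of -0.0037, 0.00083 and 0.018. Without sgWDR77-1 replicate 1 the first of these member medians was 0.023 and the last 0.072.

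Ratios of reads within a library do not depend on how libraries are scaled, and 3 pairs of partner genes were formed. They largely restate the single genes above, since PMAIP1 and BCL2L11 already separate all 12 libraries from sgNeg and BAX 11 of them, and the share of other gene pairs that separate in this way was not computed. Reads of BCL2L1 per read of BCL2L11, whose proteins bind each other, were 1.55, 1.35 and 1.64 with sgNeg, 2.03, 2.16 and 2.45 with sgPRMT5-1 and 4.45, 4.40 and 4.44 with sgPRMT5-2. With sgWDR77-1 this ratio was 1.99, 1.53 and 1.57, and with sgWDR77-2 2.27, 2.09 and 1.97. All sgPRMT5 and sgWDR77-2 libraries were above the sgNeg range, and sgWDR77-1 overlapped it. Reads of MCL1 per read of PMAIP1 were 10.9, 10.6 and 10.9 with sgNeg and 5.48 to 9.85 in the other 12 libraries. Reads of BAX per read of BAK1 were 1.25, 1.15 and 1.36 with sgNeg, 1.28, 1.77 and 1.83 with sgPRMT5-1 and 2.00, 1.72 and 1.84 with sgPRMT5-2. They were 3.86, 2.24 and 1.44 with sgWDR77-1 and 2.08, 1.67 and 1.90 with sgWDR77-2, and sgPRMT5-1 overlapped the sgNeg range. The ratios describe transcripts and were not tested, and no ratio of proteins follows from them.

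**Figure D4:**
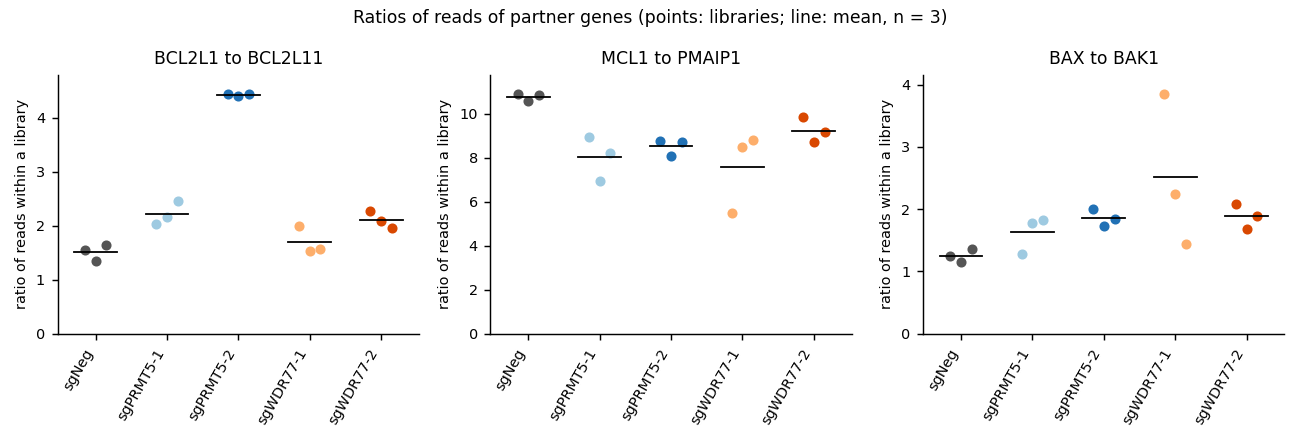
Ratios of reads within each library for BCL2L1 to BCL2L11, MCL1 to PMAIP1 and BAX to BAK1, with points for libraries and a line for the mean of 3. The ratio of BCL2L1 to BCL2L11 is 4.40 to 4.45 with sgPRMT5-2 and 1.35 to 1.64 with sgNeg, and that of MCL1 to PMAIP1 is highest in the 3 sgNeg libraries.

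For the members called in a pooled comparison, the 3 genes with the most similar pattern were taken from 11833 genes by the Pearson correlation of log2 CPM over the 15 libraries. They were MT2A (r = 0.980), HAS3 (0.973) and CDCP1 (0.972) for BCL2L1, and NINJ1 (0.926), OSBPL5 (0.925) and MDK (0.924) for BCL2L11. For BAX they were ZDHHC14 (0.915), SRP68 (0.913) and CTBP2 (0.908), and for PMAIP1 BBS7 (0.872), TBCE (0.864) and BCAT1 (0.861). The 15 libraries share their 5 conditions and are not 15 independent points, so these values describe patterns only. Neighbours on the chromosome were also examined for these genes. With sgPRMT5-2 the 72 neighbours of BAX had a median log2 fold change of 0.044, the 11 neighbours of PMAIP1 -0.044 and the 22 neighbours of BCL2L11 0.24, while BCL2L11 itself was at -0.51.

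Other genes of the apoptosis pathway were counted by list around the members. The share of all genes called, 40.1% with sgPRMT5-2 and 17.0% in PRMT5KO, is the background for each count of calls and gene named below. For counts at an unadjusted p under 0.05 in PRMT5KO it is 4722 of 14071 genes. Of the 13 other BCL2 family genes 9 could be tested, and in PRMT5KO limma voom called 0, with 5 at an unadjusted p under 0.05 and a median log2 fold change of -0.22. With sgPRMT5-2 5 of the 9 were called, of which 1 rose (BNIP3, 0.22) and 4 fell. BNIP3L, a mitophagy receptor, fell by 0.77 (adjusted p = 1.42e-06), and BOK, an effector akin to BAX, fell by 0.80 (adjusted p = 0.00568). BCL2L13 fell by 0.33, and the BH3-only gene BMF fell by 2.19 from few reads (adjusted p = 0.00507). The BNIP3 call was lost in 6 of 14 alternative settings, and that of BMF when all 15 libraries were fitted together (adjusted p = 0.0569). Genes named for sgPRMT5-2 alone were picked after their values had been seen.

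Downstream of the BCL2 family, all 13 genes of the apoptosome and caspase list were tested. In PRMT5KO CASP2 rose by 0.28 and CASP10 fell by 0.46 (adjusted p = 0.0442 and 0.0498), and the list median was 0.054. These calls were lost in 11 and 12 of 17 alternative settings, including each fit without 1 sgNeg library or 1 sgPRMT5-2 library, with adjusted p up to 0.233 and 0.152. With sgPRMT5-2 5 of the 13 were called, 2 higher and 3 lower, near the 40.1% of all genes. CASP2 rose by 0.35 and AIFM1 by 0.32 (adjusted p = 0.00372 and 0.0041), CASP10 fell by 0.52 (adjusted p = 0.0323, a call lost in 7 of 14 settings), and APAF1, the scaffold of the apoptosome, fell by 0.60 (adjusted p = 8.93e-05). Of the inhibitor of apoptosis genes, 5 of 7 were tested and BIRC2 rose in PRMT5KO by 0.35 (adjusted p = 0.0347), a call lost in 8 of 17 settings (adjusted p up to 0.133, without any 1 of the sgNeg or sgPRMT5-2 libraries among them). The list median was 0.14. With sgPRMT5-2 3 of the 5 were called. BIRC2 (0.50) and BIRC5 (0.24) rose and XIAP fell by 0.17, the last call being lost in 7 of 14 settings.

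In the death receptor list 8 of 11 genes were tested, with a median of -0.0097 in PRMT5KO. TNFRSF10B, a receptor of TRAIL, rose by 0.37 (adjusted p = 0.0217) and TNFSF10, which encodes TRAIL itself, fell by 1.11 (adjusted p = 0.0151). The first call was lost without sgNeg replicate 1, 2 or 3 (adjusted p = 0.0867, 0.0922 and 0.0781) and the second without sgNeg replicate 1 (adjusted p = 0.0918). Both were called with sgPRMT5-2, at 0.51 and -1.63, as the only 2 of the 8. Of 6 mitochondrial partners, MTCH2, a receptor for truncated BID, rose by 0.38 in PRMT5KO and the channel gene VDAC1 by 0.24 (adjusted p = 0.019 and 0.0161), with a list median of 0.13. Both calls were lost without sgNeg replicate 1 (adjusted p = 0.0731 and 0.0528) or replicate 2 (0.105 and 0.085). With sgPRMT5-2 3 of the 6 were called, and MTCH2, VDAC1 and VDAC3 rose. The VDAC3 call was lost in 9 of 14 settings.

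The 9 transcription factors known to drive BCL2 family genes had a median of -0.078 in PRMT5KO, where limma voom called 0 and 2 had an unadjusted p under 0.05. With sgPRMT5-2 4 of the 9 were called, near the 40.1% of all genes. DDIT3 (0.77) and ATF4 (0.30) rose, FOXO1 fell by 0.80 and TP73 fell by 2.54, the latter call being lost without sgPRMT5-2 replicate 1 (adjusted p = 0.0513). Of the 5 genes of MCL1 turnover limma voom called 0 in PRMT5KO, 1 had an unadjusted p under 0.05 and the median was -0.028. BTRC alone of the 5 was called with sgPRMT5-2 and fell by 0.38, and this call was lost without sgNeg replicate 1 (adjusted p = 0.0565) or sgPRMT5-2 replicate 1 or 2 (0.0577 and 0.0975). In WDR77KO limma voom called 0 genes of these 7 lists, where 3.39% of all genes were called. An unadjusted p under 0.05 was seen there for 2274 of 14073 genes. Within the lists it was seen for 1 of the other BCL2 family genes, 1 of the apoptosome list and 0 of the inhibitors. It was seen for 1 of the death receptor list, 1 transcription factor, 1 mitochondrial partner and 2 of the MCL1 turnover list. The WDR77KO medians of the 7 lists, in that order, were -0.17, -0.15, 0.10, -0.016, 0.086, -0.050 and -0.044.

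**Figure D5:**
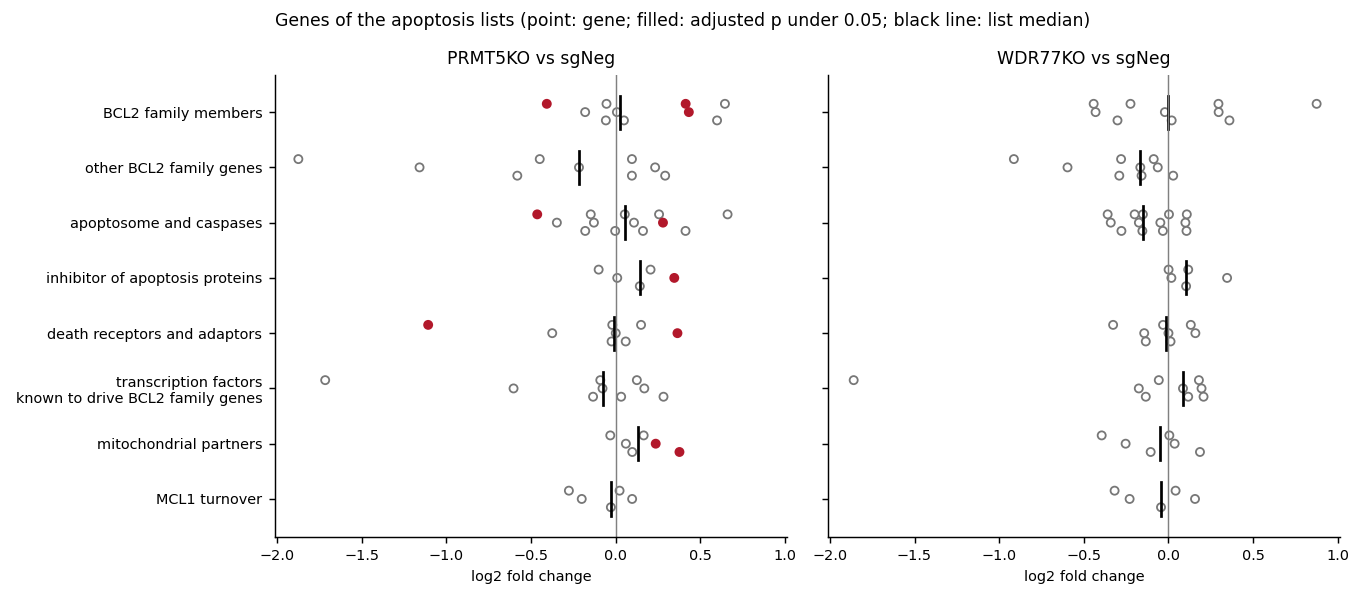
Log2 fold change against sgNeg of the members and of the genes of 7 apoptosis lists in PRMT5KO and WDR77KO, with 1 point per gene, filled where limma voom gave an adjusted p under 0.05, and a black line at the list median. Filled points appear in PRMT5KO alone, and the members have 2 above 0 and 1 below.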

How the data were processed

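RNA-seq reads of 15 HSC-5 libraries were aligned to hg38 with STAR and counted per gene with htseq-count by the authors, and the deposited values are whole-number read counts without normalization. The annotation release and the strand setting of the counting are not given in the sources used here, and the methods and the labels name different library kits. The 5 htseq-count summary entries were left out of library sizes. By these entries, 2.75% to 7.16% of reads fell outside genes, 7.09% to 7.93% could not be given to a single gene and 9.49% to 13.1% aligned at several places. Depth was 5146711 to 6730428 reads on genes per library, so genes with few reads have wide errors.

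Libraries were grouped by their labels, and PRMT5KO and WDR77KO pool both sgRNAs of a gene (6 libraries), without a term for the sgRNA in the main fits. Each of 9 comparisons was fitted on its own libraries over all genes with a mean normalized count of at least 3, using limma voom on TMM-scaled counts, with limma 3.58.1 in R 4.3.3 (trims 0.3 and 0.05, voom prior count 0.5), with Benjamini-Hochberg adjustment and a threshold of 0.05. The fitting code was tested on simulated data. CPM use the TMM-scaled library sizes. Gene positions and exon lengths came from the GENCODE annotation of GRCh38, to which 60507 of 60649 identifiers matched, promoters from RefSeq. Figures were drawn with matplotlib 3.10.9 in Python 3.11.15.

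Genes named by rule were the 10 members, PRMT5 and WDR77, for each list the genes past the threshold in PRMT5KO or WDR77KO (the 5 smallest adjusted p-values where more than 5 passed), and the 3 genes most correlated with each called member among genes with a mean of at least 10 reads. Further genes (called with a single sgRNA, near BCL2L1 on the chromosome, sharing exon bases with a member, or markers given for their level) were picked after their values had been seen. The members and lists were chosen with earlier results of these data known. By deviations from the condition means, 5 of 15 libraries correlated best with libraries of their own replicate number, and the main fits used no pairing. Of 30 pairs of libraries with the same number, 4 had a correlation over 0.1, and the range was -0.31 to 0.26. Between sgNeg and sgPRMT5-1 these correlations were 0.067, 0.11 and 0.26. Whether libraries of particular conditions were paired was not tested. Alternatives were RLE, upper quartile and library-total scaling, no filter or a mean of at least 10, all 15 libraries in one fit, the replicate number as a block, limma-trend, a minimum fold beside the test (log2 of 1, either direction), and fits that omit a single library.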

Additional observations from a re-analysis of the deposited data

Results flagged for a closer look

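In PRMT5KO, taken as 6 libraries, sgPRMT5-1 replicate 3 lay far below the others for MCL1 at 528 CPM, and sgPRMT5-2 replicate 2 lay far above the others for BID at 45.0 CPM, by the gap to the nearest library relative to the range of the group. The gap was examined in 20 groups of 6 libraries, of which chance singles out about 1 in 20. Without sgPRMT5-1 replicate 3 or sgPRMT5-2 replicate 2, MCL1 and BID were still not called in PRMT5KO against sgNeg.

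BCL2L1 differed between conditions meant to do the same or related things. It was higher by a log2 fold change of 0.79 with sgPRMT5-2 than with sgPRMT5-1 (adjusted p = 1.01e-06, limma voom), and higher by 0.64 in PRMT5KO than in WDR77KO (adjusted p = 0.0136). The sgPRMT5-2 libraries enter both values, as 3 of the 6 PRMT5KO libraries in the second. The sgPRMT5-1 libraries, at 64.6 to 74.0 CPM, also lay above the sgWDR77 libraries, at 52.6 to 64.1 CPM. A comparison of sgPRMT5-1 alone with WDR77KO was not run.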

How the results depend on the processing

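Of the log2 fold changes of named genes under other settings, 2040 kept their direction and side of the threshold, 116 lost the call, 20 gained it and 44 turned direction, and of the counts of called genes and members 221 stayed within 1.5 times and 73 moved further. edgeR, and DESeq2 as the authors used it, were planned but not run, because the automated check of units did not accept the tables as counts. Scaling shifted the median of all genes by at most -0.084 (log2). The cause of the changes below was not tested, save where a stricter fold makes the count smaller by construction.

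When a log2 fold change beyond 1 in either direction was also required, the calls were 180 genes for sgPRMT5-1, 1248 genes and 1 member for sgPRMT5-2, 159 genes for sgWDR77-1, 192 for sgWDR77-2, 529 genes and 0 members for PRMT5KO, 208 genes for WDR77KO, 386 and 0 for sgPRMT5-2 against sgPRMT5-1, and 384 and 0 for PRMT5KO against WDR77KO. With no filter these were 987 genes and 1 member (PMAIP1) for sgPRMT5-1, 2 members for sgPRMT5-2 against sgPRMT5-1 and 127 genes for sgWDR77-2 against sgWDR77-1. With all 15 libraries in one fit they were 1333 genes and 2 members (BAK1, BIK) for sgWDR77-1, 1187 and 1 (BCL2) for WDR77KO, 1059 genes for sgPRMT5-2 against sgPRMT5-1, 339 for sgWDR77-2 against sgWDR77-1 and 3813 genes and 3 members (BCL2L1, BAK1, BIK) for PRMT5KO against WDR77KO. With the replicate number as a block they were 1427 genes and 2 members (BAX, PMAIP1) for sgPRMT5-1 and 369 genes for sgWDR77-2, and with library totals 11 genes for sgWDR77-2 against sgWDR77-1. BCL2L1 in PRMT5KO was called with upper quartile scaling (adjusted p = 0.045), all 15 libraries (1.35e-05) and limma-trend (0.0379).

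Directions turned for BIK with sgPRMT5-2 (0.0041, upper quartile), BBC3 in PRMT5KO (-0.00085 with RLE, -0.057 with library totals), MCL1 in PRMT5KO (-0.014, library totals) and WDR77KO (0.0069, upper quartile), BAX in sgWDR77-2 against sgWDR77-1 (0.010, all 15 libraries) and BID in PRMT5KO against WDR77KO (-0.0037, library totals).

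With 1 library left out, called genes ranged from 211 to 510 for sgPRMT5-1 (members 0 to 1), 56 to 1003 for sgWDR77-1, 293 to 661 for sgWDR77-2 (members 0 to 1), 483 to 3562 for PRMT5KO (members 0 to 4, fewest without sgNeg replicate 1, most without sgPRMT5-1 replicate 1), 199 to 677 for WDR77KO, 1429 to 4711 for sgPRMT5-2 against sgPRMT5-1 (members 1 to 2), 0 to 156 for sgWDR77-2 against sgWDR77-1 and 876 to 3178 for PRMT5KO against WDR77KO. Log2 fold changes that turned ranged for MCL1 from -0.12 to 0.048 with sgPRMT5-1, -0.043 to 0.11 in PRMT5KO and -0.10 to 0.061 in WDR77KO. For BBC3 they ranged from -0.052 to 0.42 with sgPRMT5-1, -0.25 to 0.060 with sgPRMT5-2, -0.014 to 0.52 with sgWDR77-1, -0.16 to 0.10 in PRMT5KO and -0.24 to 0.33 in sgWDR77-2 against sgWDR77-1. For BAK1 they were -0.11 to 0.041 with sgPRMT5-1, -0.11 to 0.046 in sgPRMT5-2 against sgPRMT5-1 and -0.059 to 0.58 in sgWDR77-2 against sgWDR77-1, and for BIK -0.058 to 0.026 with sgPRMT5-2 and -0.0095 to 0.59 in the latter. BCL2L1 ranged from -0.11 to 0.0057 with sgWDR77-1 and -0.047 to 0.057 in WDR77KO, PMAIP1 from -0.034 to 0.21 in sgPRMT5-2 against sgPRMT5-1 and -0.081 to 0.10 in sgWDR77-2 against sgWDR77-1, BAX from -0.070 to 0.073 in the last and BID from -0.011 to 0.070 in PRMT5KO against WDR77KO. BCL2 and BBC3 had 13 to 66 reads per library, and the part of depth in the spread of their values was not tested.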

Other observations

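Among the apoptosis genes around the BCL2 family, a few were called with a single sgRNA other than sgPRMT5-2, and they were picked after their values had been seen. With sgWDR77-1, BIRC3, which encodes an inhibitor of apoptosis protein, rose by 0.71 (log2, adjusted p = 0.0307, limma voom) and the channel gene VDAC2, whose protein binds BAK1 at mitochondria, fell by 0.62 (adjusted p = 0.0316). The BIRC3 call was lost without sgNeg replicate 2 or 3 (adjusted p = 0.111 and 0.199), and the VDAC2 call without sgNeg replicate 1, 2 or 3 (0.154, 0.0602 and 0.196) or sgWDR77-1 replicate 2 (0.11). With sgPRMT5-1, TNFSF10 fell by 0.58 (adjusted p = 0.0394), and this call was lost without sgNeg replicate 1 (0.204) or sgPRMT5-1 replicate 2 or 3 (0.114 and 0.141), and with all 15 libraries in one fit (0.111).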
